A study of Homo sapiens with 6 samples.

Results

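Aldehyde dehydrogenases and stem cell marker genes were examined in OVCAR5 cells carrying a METTL3 lentivirus or an empty-vector lentivirus. The set holds 10 genes of 60649 gene rows, and each was found by matching its symbol to the gene identifier without version. They are the aldehyde dehydrogenase genes ALDH1A1, ALDH1A2, ALDH1A3, ALDH1B1, ALDH3A1 and ALDH3A2 and the surface marker genes PROM1, CD44, CD24 and LGR5. OVCAR5 is an established epithelial ovarian cancer cell line. Stable lines were made by lentiviral infection and puromycin selection, so both groups carried a lentivirus and had been through selection, and the overexpressed gene was METTL3, the catalytic subunit of the enzyme complex that writes m6A on mRNA. There were 3 libraries per group, and the labels name no drug treatment and no separate cultures, so p-values measure only the spread between these libraries, which may be technical. One label field calls the controls parental, whereas the treatment description gives them the empty vector.

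Aldehyde dehydrogenases oxidise aldehydes to acids. The ALDH1A enzymes make retinoic acid from retinal, ALDH1B1 is mitochondrial, ALDH3A1 acts on aromatic and lipid-derived aldehydes, and ALDH3A2 oxidises fatty aldehydes. High aldehyde dehydrogenase activity, measured by a fluorescent substrate assay, is a common way to isolate ovarian cancer stem-like cells, as are antibodies against the surface proteins CD133 (made from PROM1), CD44 and CD24. CD44 is a receptor for hyaluronan, CD24 is a small lipid-anchored glycoprotein, and LGR5 is an R-spondin receptor that marks stem cells of the intestine and of the ovarian surface. Protein levels and enzyme activity were not analysed here.

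Upstream sequence is shown for ALDH1A3 and ALDH1A1, the most abundant ALDH1A transcript and the one usually cited as the ovarian stem cell enzyme, and for CD24, the gene of the set that varied most between libraries. Each run is the 250 bases before the RefSeq transcription start (GRCh38.p14), written 5′ to 3′ on the gene's strand. Capitals mark the GC box GGGCGG and the CCAAT box CCAAT on either strand.
ALDH1A3: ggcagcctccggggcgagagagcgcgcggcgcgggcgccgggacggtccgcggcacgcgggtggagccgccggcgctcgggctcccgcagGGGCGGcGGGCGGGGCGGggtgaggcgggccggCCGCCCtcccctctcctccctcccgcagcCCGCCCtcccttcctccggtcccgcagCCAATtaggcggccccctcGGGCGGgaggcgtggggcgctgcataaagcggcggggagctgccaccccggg
ALDH1A1: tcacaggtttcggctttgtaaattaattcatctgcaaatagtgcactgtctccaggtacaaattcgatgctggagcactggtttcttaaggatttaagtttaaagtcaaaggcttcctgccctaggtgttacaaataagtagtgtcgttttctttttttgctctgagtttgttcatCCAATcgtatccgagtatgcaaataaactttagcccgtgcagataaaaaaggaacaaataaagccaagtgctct
CD24: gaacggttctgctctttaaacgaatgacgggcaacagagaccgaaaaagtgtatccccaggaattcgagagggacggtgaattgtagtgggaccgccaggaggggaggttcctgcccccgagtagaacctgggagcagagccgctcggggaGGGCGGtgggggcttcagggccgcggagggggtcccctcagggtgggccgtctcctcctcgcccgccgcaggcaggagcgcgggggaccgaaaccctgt
The ALDH1A3 run lies at chr15:100879581-100879830 on the plus strand, where GENCODE places it inside longer ALDH1A3 isoforms and an overlapping gene named ENSG00000272639, with 18 of its bases exonic. The ALDH1A1 run lies at chr9:72953054-72953303 on the minus strand, inside longer ALDH1A1 isoforms, with 3 exonic bases. The CD24 run lies at chr6:106975628-106975877 on the minus strand, outside every annotated gene. G and C made up 82.4% of the ALDH1A3 run, 38.4% of the ALDH1A1 run and 65.6% of the CD24 run, against a median of 58% over 27305 promoters of the same length. The ALDH1A3 run held 6 GC boxes, some of which overlap, and 1 CCAAT box, the ALDH1A1 run held 1 CCAAT box and no GC box, and the CD24 run held 1 GC box and no CCAAT box. A GC box stood in 42.3% of all promoters and a CCAAT box in 33.0%. The TATA box TATAAA (in 11.1% of all promoters), the AP-1 site TGACTCA (4.16%), the nuclear receptor motif AGGTCA (12.1%) and the E-box CACCTG (17.5%), also searched on both strands, were in none of the 3 runs. The matches are descriptions of letters, and RefSeq rows matched 8 of the 10 genes.

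Total counts ran from 96633925 to 125463386 per library. METTL3, the targeted gene, had 152, 165 and 175 CPM (counts per 1000000, scaled by edgeR's TMM factors) in METTL3 replicates 1, 2 and 3 and 80.6, 68.6 and 71.6 in the vector replicates, with no overlap between the groups (two-sided exact permutation p = 0.1, and 3 against 3 libraries cannot give less). All 8 epithelial markers checked were expressed, and their summed level was 7857 to 8865 CPM with METTL3 and 6318 to 9760.5 CPM with vector. Of 4 ovarian lineage markers, PAX8 stood at 6.38 to 11.6 CPM and MUC16 at 1.98 to 49.4 CPM in the 6 libraries. ESR1 (0.0362 to 0.188 CPM) and WT1 (0 to 0.204 CPM) were close to 0. The 10 leukocyte, stromal and endothelial markers summed to 18.2 to 20.5 CPM with METTL3 and 9.54 to 20.7 CPM with vector, mostly from COL1A1, and 8 of the 10 averaged under 1 CPM.

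Level per length separated the 10 genes into 3 blocks and 2 genes far below them. As CPM per kilobase of exonic sequence (FPKM), ALDH1A3 and CD44 led with means of 101 and 96.8 over the 6 libraries. ALDH3A1, CD24 and ALDH1B1 followed with 30.7, 29.1 and 21.2 FPKM, then ALDH3A2, PROM1 and ALDH1A1 with 6.96, 3.28 and 2.62 FPKM. ALDH1A2 had 0.0448 FPKM and LGR5 had 0.00784 FPKM. Neighbours within a block had overlapping ranges over the libraries, and neighbours from different blocks did not. The ranges of ALDH1A2 and LGR5 did not overlap. With the longest transcript as the length, CD44 (178 FPKM) stood above ALDH1A3 (156 FPKM) and the other ranks were the same. The blocks depended on the length, since ALDH3A2 then had 21.0 FPKM, with a range that overlapped that of ALDH1B1 (21.8 FPKM), and ALDH1B1 no longer overlapped CD24.

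**Figure D1:**
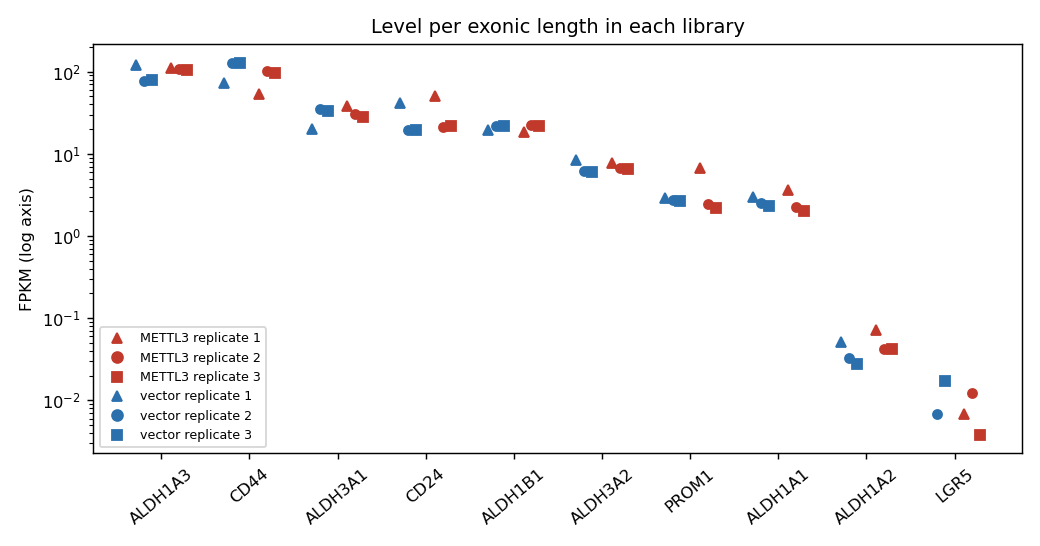
Level per exonic length (FPKM, log axis) of each of the 10 genes in the 6 libraries, ordered by mean; red marks METTL3 and blue vector, and the symbol shape gives the replicate. ALDH1A3 and CD44 average 101 and 96.8 FPKM and LGR5 lies at or under 0.0173 FPKM, and the vector replicate 1 value of LGR5, which is 0, cannot be drawn on a log axis.

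Among the retinoic acid-forming ALDH1A genes, ALDH1A3 made up nearly all of the transcript level. It took 96.8%, 97.9% and 98.1% of the summed ALDH1A FPKM in METTL3 replicates 1, 2 and 3 and 97.6%, 96.8% and 97.2% in the vector replicates. Its FPKM was 30.5 to 52.6 times that of ALDH1A1. Across the 6 aldehyde dehydrogenase genes of the set and 13 others of the family, ALDH1A3 held 33.6% to 45.9% of the summed FPKM, with the highest share in vector replicate 1 and the lowest in vector replicate 2.

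The main comparison asked whether METTL3 overexpression changed the level of these genes. No gene of the set passed the test on all 6 libraries. LGR5 was below edgeR's filter on low counts, so 9 of the 10 genes were tested, and 0 of the 9 had an adjusted p under 0.05 (edgeR quasi-likelihood test with Benjamini-Hochberg adjustment over 22038 genes). The background was 0% of all genes tested. METTL3 itself, at 1.16 ± 0.12 on the log2 scale, did not pass this test either (adjusted p = 0.0720). An uncalled gene is therefore not shown to be unchanged. DESeq2 called METTL3 on all 6 libraries (adjusted p = 1.4e-14), as did edgeR in replicates 2 and 3 (1.28 ± 0.056, adjusted p = 1.6e-08). Without adjustment, 0 of the 9 were under 0.05 against 8.3% of all genes, and DESeq2 called 0 of the 9 against 1.27% of all genes. The 2 groups did not overlap in CPM for 0 of the 9 genes, against 17.4% of all genes. In these bulk libraries, fewer cells of a type and less RNA per cell cannot be told apart.

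**Figure D2:**
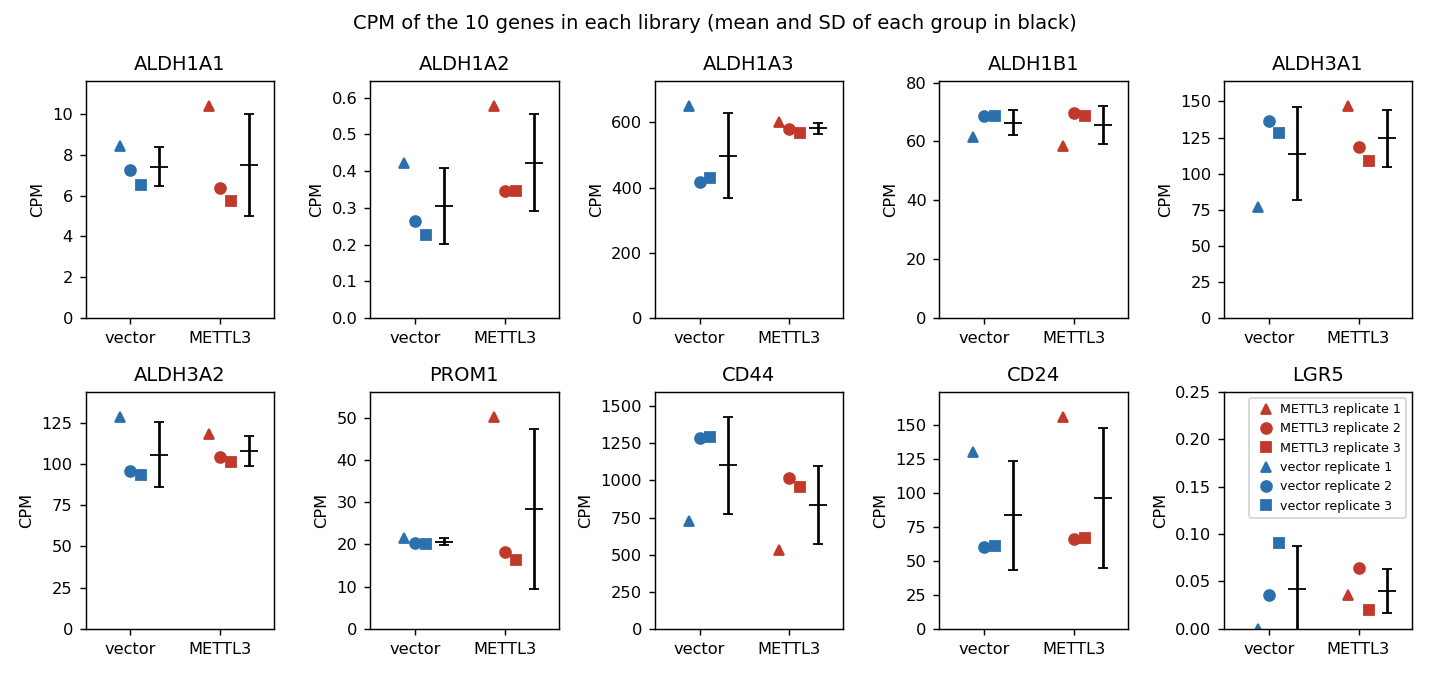
CPM of each gene in each library (vector blue, METTL3 red, symbol shape for the replicate), with the mean and SD of each group in black and each axis starting at 0. The replicate 1 triangles of CD24 (156 and 130 CPM) and CD44 (532 and 726 CPM) lie apart from the other libraries of their own group, and in no panel do the groups separate.

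ALDH1A3 had 599, 578 and 567 CPM in METTL3 replicates 1, 2 and 3 and 648, 416 and 429 CPM in vector replicates 1, 2 and 3. The METTL3 libraries lay close together, and vector replicate 1 was above all of them while the other vector libraries were below. The group means were 581 ± 16.5 and 498 ± 131 CPM (SD, n = 3 libraries each), and the log2 fold change was 0.22 ± 0.18 (SE, adjusted p = 0.725). Without vector replicate 1 it was 0.46 with an adjusted p of 0.0474, so that library decided the call. ALDH1A3 was higher with METTL3 by 0.44 ± 0.051 in replicates 2 and 3 alone (adjusted p = 3.8e-05). Exons of ALDH1A3-AS1 on the opposite strand cover 32.1% of the ALDH1A3 exonic bases, and the strand setting of the counting is not given in the sources used here. ALDH1A3-AS1 had 29.0, 18.6 and 18.5 CPM with METTL3 and 25.9, 13.2 and 12.3 CPM with vector, and its log2 fold change was 0.36 ± 0.31 on all libraries (adjusted p = 0.739) and 0.54 ± 0.076 in replicates 2 and 3 (adjusted p = 0.000204). Without strand, reads of the gene and its antisense partner cannot be told apart.

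ALDH1A1 had 10.4, 6.37 and 5.74 CPM with METTL3 and 8.43, 7.26 and 6.53 CPM with vector, so the groups overlapped fully. Its log2 fold change was 0.02 ± 0.24 (adjusted p = 0.990). The fit of replicates 2 and 3 gave -0.19 ± 0.11 (adjusted p = 0.287). ALDH1A2 had 65, 43 and 35 counts with METTL3 and 40, 30 and 25 with vector, or 0.576, 0.347 and 0.347 CPM against 0.422, 0.265 and 0.226 CPM. It was higher with METTL3 within every replicate number, by 0.45, 0.39 and 0.62 on the log2 scale, while the fit gave 0.48 ± 0.37 (adjusted p = 0.712). Exons of other genes on the opposite strand cover 6.93% of its exonic bases.

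ALDH1B1 was the steadiest gene of the set above 1 CPM. It had 58.3, 69.8 and 68.6 CPM with METTL3 and 61.4, 68.7 and 68.8 CPM with vector, lowest in replicate 1 of each group. The log2 fold change was -0.02 ± 0.12 (adjusted p = 0.978). ALDH3A2, the fatty aldehyde enzyme, had 118, 104 and 101 CPM with METTL3 and 128, 95.4 and 93.0 CPM with vector, highest in replicate 1 of each group. Its log2 fold change was 0.03 ± 0.15 (adjusted p = 0.965) on all libraries and 0.12 ± 0.053 (adjusted p = 0.156) in replicates 2 and 3.

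ALDH3A1 turned direction with the replicate number. It had 147, 118 and 109 CPM in METTL3 replicates 1, 2 and 3 and 77.0, 136 and 128 CPM in vector replicates 1, 2 and 3. METTL3 replicate 1 was the highest of the 6 libraries and vector replicate 1 the lowest, whereas in replicates 2 and 3 both METTL3 libraries were below both vector libraries. The log2 fold change was 0.13 ± 0.22 (adjusted p = 0.871) on all libraries. Without vector replicate 1 it was -0.086 (adjusted p = 0.783), and in replicates 2 and 3 ALDH3A1 fell by 0.22 ± 0.058 (adjusted p = 0.0188).

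PROM1 rested on a lone high library. It had 50.1, 18.3 and 16.4 CPM in METTL3 replicates 1, 2 and 3 and 21.5, 20.4 and 20.1 CPM in the vector replicates, so METTL3 replicate 1 stood above all others and METTL3 replicates 2 and 3 below every vector library. The log2 fold change was 0.45 ± 0.38 (adjusted p = 0.739). It was -0.23 without METTL3 replicate 1 (adjusted p = 0.821) and -0.23 ± 0.076 in replicates 2 and 3 (adjusted p = 0.0606). A same-strand gene, FGFBP2, shares 2.23% of the PROM1 exonic bases.

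CD44 was lower with METTL3 within every replicate number. It had 532, 1013 and 957 CPM in METTL3 replicates 1, 2 and 3 and 726, 1287 and 1291 CPM in vector replicates 1, 2 and 3. The differences within the numbers were -0.45, -0.35 and -0.43 on the log2 scale, while the groups overlapped because replicate 1 was low in each. The log2 fold change was -0.40 ± 0.29 (adjusted p = 0.695) on all libraries. With the replicate number as a block it was -0.41 ± 0.12, with an unadjusted p of 0.0150 and an adjusted p of 0.335 (edgeR quasi-likelihood test). CD44 fell by 0.39 ± 0.051 in replicates 2 and 3 (adjusted p = 0.000114). Counts were per gene, so the standard and variant-exon forms of CD44 were not distinguished.

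CD24 had 156, 66.5 and 66.8 CPM in METTL3 replicates 1, 2 and 3 and 130, 60.2 and 61.0 CPM in vector replicates 1, 2 and 3. It was higher with METTL3 within every replicate number, by 0.26, 0.14 and 0.13 on the log2 scale, and the difference between replicate 1 and the others was far larger. The log2 fold change was 0.20 ± 0.40 (adjusted p = 0.894) on all libraries and 0.14 ± 0.054 (adjusted p = 0.116) in replicates 2 and 3. Autosomal processed copies of CD24 had at most 2 counts in any library.

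LGR5 was close to undetected. It had 4, 8 and 2 counts in METTL3 replicates 1, 2 and 3 and 0, 4 and 10 counts in vector replicates 1, 2 and 3. The count of 0 in vector replicate 1 allows a level of up to 0.0316 CPM (3 counts, counting error only). All 6 counts of LGR5 are even, and if both mates of a fragment were counted, the level that 0 allows is higher than this. No difference was detectable at this depth.

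With replicates 2 and 3 alone, a choice made with earlier results of these libraries known, 3 of the 9 tested genes were called, against 15.2% of all genes. ALDH1A3 rose, 1 of the 9 against 6.66% of all genes, and ALDH3A1 and CD44 fell, 2 of the 9 against 8.59%. Differences had 1 sign within all 3 replicate numbers for 3 of the 9 genes (CD44, ALDH1A2 and CD24), against 39.6% of all genes. The median log2 fold change on all 6 libraries was 0.08 over the 6 aldehyde dehydrogenase genes and 0.20 over the 3 tested surface genes, beside -0.02 over all genes tested. In replicates 2 and 3 the medians were 0.064 and -0.23, so that of the surface genes changed sign.

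**Figure D3:**
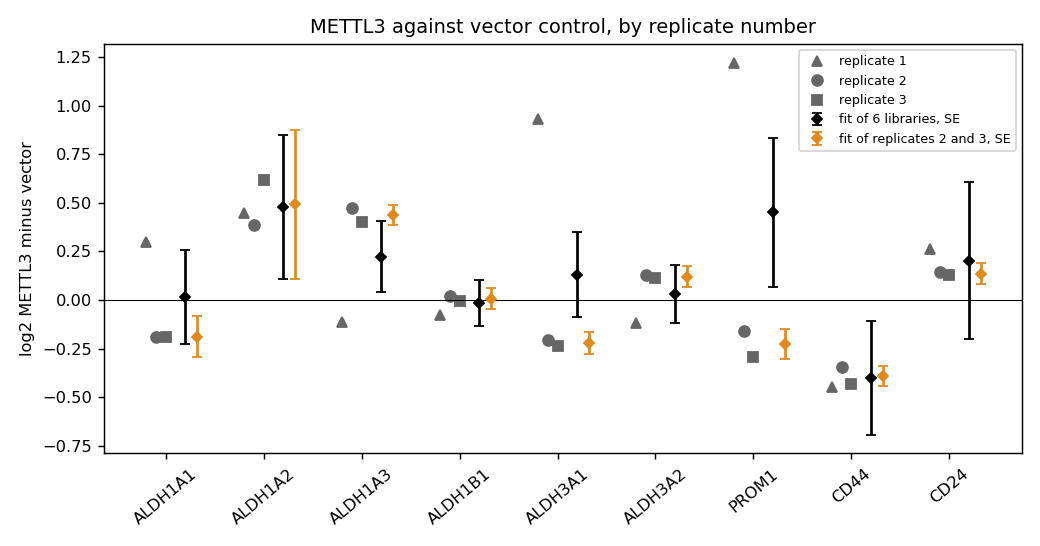
Log2 difference of METTL3 minus vector for the 9 tested genes, within each replicate number (grey), and as fitted with its SE on all 6 libraries (black) and on replicates 2 and 3 (orange). CD44 lies below 0 in every replicate number (-0.45, -0.35 and -0.43), while the replicate 1 points of PROM1 (1.22) and ALDH3A1 (0.93) lie opposite to replicates 2 and 3.

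Replicate 1 of each group stood apart from replicates 2 and 3 for most of the set, and the labels do not say what set it apart. The contrast was chosen because replicate 1 was already known to lie apart in these data. Its p-values and counts therefore describe a known spread and are no independent test of it. CD24 was higher in replicate 1 by 1.16 ± 0.082 on the log2 scale (adjusted p = 0.00190) and CD44 was lower, with a difference of -0.86 ± 0.10 (adjusted p = 0.00642), in a model with the group as a term. These 2 of the 9 genes were called, against 9.06% of all genes. Without METTL3 replicate 1, that fit called 6 of the 9 genes against 40.2% of all genes, and without vector replicate 1 it called 7 against 26.1%, each time with a lone replicate 1 library in the contrast. Values of replicate 1 did not overlap those of replicates 2 and 3 for 8 of the 9 genes, against 32.4% of all genes, with ALDH3A1 the exception. PROM1 (0.87 ± 0.28, adjusted p = 0.0980), ALDH1A2 (0.75 ± 0.25, adjusted p = 0.107) and ALDH1A1 (0.54 ± 0.14, adjusted p = 0.0605) had positive differences that did not pass the threshold. The PROM1 difference rested on METTL3 replicate 1, without which it was 0.042, and leaving out single libraries moved that of ALDH1A1 between 0.25 and 0.77.

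As a ratio of FPKM, CD44 to CD24 was 1.06, 4.72 and 4.44 in METTL3 replicates 1, 2 and 3 and 1.73, 6.62 and 6.55 in vector replicates 1, 2 and 3. Within each replicate number the ratio was lower with METTL3, and the gap between replicate 1 and the others was larger than the gap between the groups. The ratio of these transcripts describes a library and not the phenotype of single cells.

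**Figure D4:**
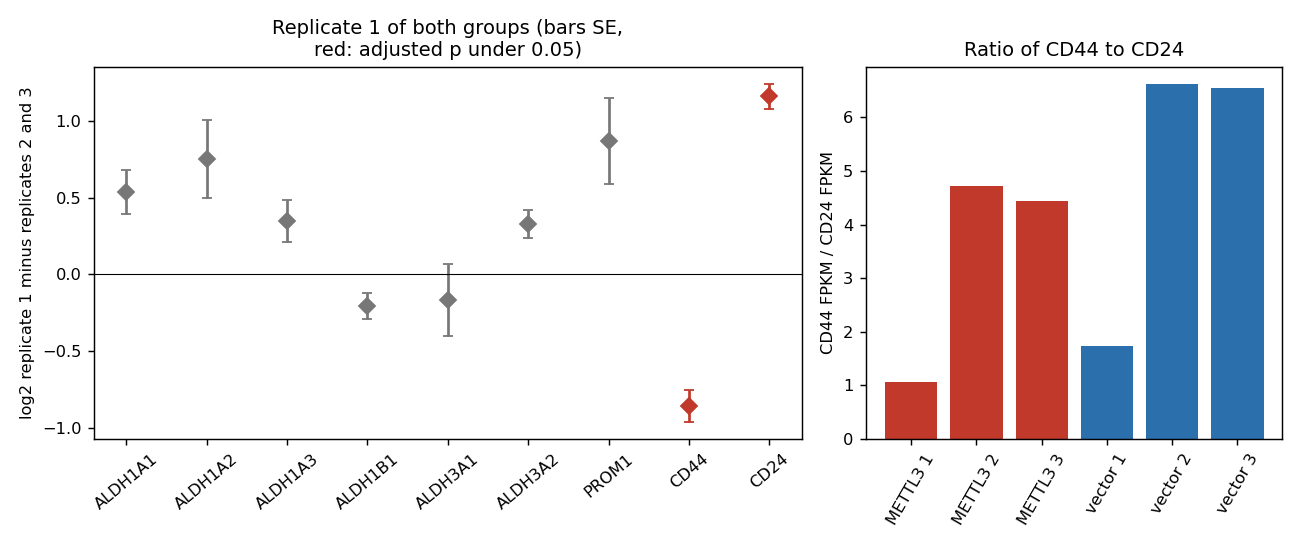
Left, log2 difference of replicate 1 minus replicates 2 and 3 with its SE for the 9 tested genes (red, adjusted p under 0.05). Right, the ratio of CD44 FPKM to CD24 FPKM in each library, from an axis at 0, which is 1.06 and 1.73 in the replicate 1 libraries and 4.44 to 6.62 in the others.

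A term for the difference between the METTL3 effect in replicate 1 and that in replicates 2 and 3, added after the values were seen, called PROM1 (1.44 ± 0.12, adjusted p = 1.4e-05), ALDH3A1 (1.15 ± 0.10, adjusted p = 1.6e-05) and ALDH1A3 (-0.55 ± 0.084, adjusted p = 0.000356). These were 3 of the 9 genes, against 30.2% of all genes. Replicate 1 is 1 library per group, so this test takes its error from the spread of replicates 2 and 3 alone. CD44 did not pass it (-0.06 ± 0.086, adjusted p = 0.660).

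By the root mean square difference of centred log2 CPM over the 6 libraries and 14683 genes, the genes nearest to CD24 were IRAG1 (0.0696), FOLR1 (0.0735) and AXIN2 (0.0802). FOLR1, the folate receptor, had 13.6, 5.25 and 5.81 CPM with METTL3 and 10.5, 5.03 and 5.55 CPM with vector. AXIN2, a Wnt target and feedback inhibitor, had 7.97, 3.69 and 3.39 CPM with METTL3 and 6.78, 3.31 and 3.22 CPM with vector. Nearest to PROM1 were SSC4D (0.0806), DMBT1 (0.104) and PTGS2 (0.107). DMBT1, a mucosal scavenger receptor, had 378, 140 and 113 CPM with METTL3 and 144, 139 and 126 CPM with vector, and PTGS2, the inducible cyclooxygenase, had 87.0, 35.1 and 30.8 against 33.4, 34.6 and 32.3 CPM. In the genes near CD24, replicate 1 was the highest library of each group, and in those near PROM1, METTL3 replicate 1 was the highest of all 6 libraries. The genes were picked for closeness over these same libraries, so the shared pattern follows from the choice.

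The other genes of the same pathways, with the cell type markers, made 105 genes in all, of which 86 were tested on all 6 libraries. None passed the adjusted edgeR test, against 0% of all genes, and 10 had an unadjusted p under 0.05, against 8.3%. DESeq2 called 2 of the 86, against 1.27% of all genes. These were ESRP2 (adjusted p = 0.000126) and CDH1 (adjusted p = 1.47e-08), both higher. Of 13 other aldehyde dehydrogenase genes, all 13 were tested, 11 had a positive log2 fold change and the median was 0.27. In replicates 2 and 3, 10 were positive and the median was 0.10. ALDH3B1, which acts on lipid-derived aldehydes, had 247, 176 and 170 CPM with METTL3 and 165, 124 and 113 CPM with vector, without overlap (log2 fold change 0.56 ± 0.19, unadjusted p = 0.0197, adjusted p = 0.547). It was the lone called gene of the list in replicates 2 and 3, at 0.54. The most abundant others per length, ALDH18A1 of proline synthesis and ALDH9A1, had fold changes of 0.04 ± 0.10 and -0.16 ± 0.11 on the log2 scale.

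Of 20 retinoid pathway genes, 17 were tested, with 9 positive and 8 negative fold changes and a median of 0.04. None had an unadjusted p under 0.05, against 8.3% of all genes. The most abundant per length were CRABP2, which carries retinoic acid to the nucleus (0.38 ± 0.27), DHRS3, which reduces retinal (0.04 ± 0.23), and RDH11, a retinal reductase (-0.17 ± 0.18, all on the log2 scale). Higher levels in replicate 1 of both groups passed the test for all 3, by 0.72, 0.63 and 0.47. Calls in replicates 2 and 3, named after their values were seen, included DHRS9, a retinol dehydrogenase (0.41), which was higher with METTL3. RDH10, which forms retinal (-0.36), STRA6, a retinol transporter (-0.44), and CYP26B1, which degrades retinoic acid (-0.32), were lower. Replicate 1 went the other way for each of the 4, with differences of -0.75 for DHRS9, 0.32 for RDH10, 1.00 for STRA6 and 1.03 for CYP26B1, and none was called on all 6 libraries.

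Of 17 genes of the LGR5 and R-spondin pathway, 12 were tested, 10 with a positive fold change, and the median was 0.15. None had an unadjusted p under 0.05, against 8.3% of all genes. The fit of replicates 2 and 3 gave 6 positive and 6 negative fold changes and a median of -0.0039. All 4 R-spondin ligand genes, RSPO1 to RSPO4, were below the filter. LGR4, the R-spondin receptor related to LGR5, had 256, 272 and 261 CPM with METTL3 and 257, 284 and 273 CPM with vector, a log2 fold change of -0.05 ± 0.11. The Wnt co-receptor genes LRP5 and LRP6 had 0.47 ± 0.23 and 0.06 ± 0.13. The LRP5 level was 299 CPM in vector replicate 1 and 485 to 721 CPM in the other 5 libraries. Of the 12, 2 were called in replicates 2 and 3, both lower. Named after their values were seen, these were the Wnt feedback genes NKD1 (-0.54) and NOTUM (-0.67). Within replicate 1 each was higher with METTL3, by 1.11, and on all 6 libraries their fold changes were 0.12 and 0.033.

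Of 16 genes for CD44 ligands, shedding and splicing, 15 were tested, 12 of them with a negative fold change, and the median was -0.10. HAS3, a hyaluronan synthase, had 8.03, 14.9 and 16.5 CPM with METTL3 and 14.3, 25.1 and 25.5 CPM with vector (log2 fold change -0.72 ± 0.30, unadjusted p = 0.0439, adjusted p = 0.593). ESRP2, an epithelial splicing regulator of CD44 and other genes, had 61.1, 58.4 and 57.7 CPM with METTL3 and 41.8, 34.0 and 34.3 CPM with vector, without overlap (0.69 ± 0.12, unadjusted p = 0.000348, adjusted p = 0.303). The most abundant per length were EZR, a membrane-cytoskeleton linker that binds CD44 (0.31 ± 0.24), HMMR, a hyaluronan-binding protein (-0.24 ± 0.22), and ADAM10, a protease that sheds CD44 (-0.02 ± 0.11). HMMR had differences of -1.06, 0.14 and 0.088 within replicates 1, 2 and 3. In replicates 2 and 3, 3 of the 15 were called higher and 4 lower, against 6.66% and 8.59% of all genes. Named after their values were seen, ESRP2 (0.76), ESRP1 (0.65) and EZR (0.55) were higher. CEMIP (-0.97), HAS3 (-0.69), MSN (-0.48) and MMP14 (-0.29) were lower. Within replicate 1 EZR (-0.025), CEMIP (1.00) and MMP14 (0.32) turned, and the other calls kept their sign.

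Of 18 other stem cell markers, 14 were tested, 10 with a positive fold change, and the median was 0.10. SOX2, a pluripotency factor, had 5.29, 2.89 and 2.28 CPM with METTL3 and 2.34, 1.96 and 1.92 CPM with vector (0.75 ± 0.31, unadjusted p = 0.0414). KLF4, also a reprogramming factor, had 65.4, 42.5 and 41.6 CPM against 33.4, 35.8 and 35.6 CPM, without overlap (0.51 ± 0.18, unadjusted p = 0.0211). DCLK1, a tuft cell and tumour stem cell marker, had 1.46, 3.41 and 4.08 CPM against 4.74, 6.37 and 7.99 CPM, without overlap (-1.09 ± 0.36, unadjusted p = 0.0163). Their adjusted p-values were 0.590, 0.551 and 0.531. The most abundant per length were EPCAM (0.36 ± 0.24), the integrin gene ITGA6 (0.04 ± 0.16) and SOX9 (0.07 ± 0.33). In replicates 2 and 3, 4 of the 14 were called higher and 2 lower, against 6.66% and 8.59% of all genes. Named after their values were seen, EPCAM (0.71), ABCG2 (0.27), MYD88 (0.24) and KLF4 (0.23) were higher and ENG (-0.65) and DCLK1 (-0.94) lower. Within replicate 1 EPCAM turned (-0.14) and the other calls kept their sign. SOX9, not called, had differences of 0.92, -0.10 and -0.23 in replicates 1, 2 and 3.

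Among the 8 epithelial markers, all fold changes were positive, with a median of 0.23, and the largest were the adhesion gene CDH1 and the mucin gene MUC1. Within replicate 1, however, 5 of the 8 were lower with METTL3, KRT7 (-0.28), KRT8 (-0.23), KRT18 (-0.22), EPCAM (-0.14) and KRT19 (-0.086). CDH1 had 439, 358 and 346 CPM with METTL3 and 201, 184 and 189 CPM with vector, without overlap (0.99 ± 0.13, adjusted p = 0.170). MUC1 had 148, 105 and 90.5 CPM against 27.0, 78.7 and 71.9 CPM, also without overlap (0.95 ± 0.37, adjusted p = 0.565). All 8 were called higher in replicates 2 and 3, at 0.17 to 0.91, against 6.66% of all genes. In the same fit CD44 was lower and ALDH1A3 higher, and the part of epithelial state in those results was not tested. The most abundant per length were KRT8, KRT18 and KRT19, with 0.04 ± 0.21, 0.06 ± 0.16 and 0.27 ± 0.23. The ovarian tumour antigen MUC16 (CA125) had 49.4, 6.17 and 3.45 CPM with METTL3 and 7.20, 2.89 and 1.98 CPM with vector, highest in METTL3 replicate 1 as was PROM1 (2.29 ± 0.95, unadjusted p = 0.0411, adjusted p = 0.590).

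**Figure D5:**
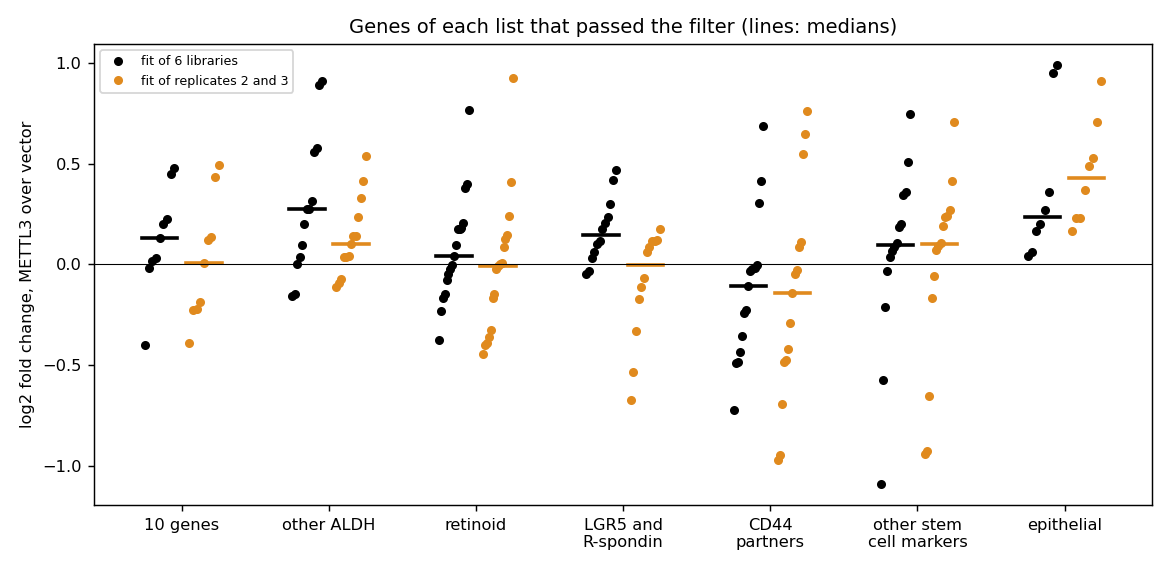
Log2 fold change of METTL3 over vector for each tested gene of the set and of 6 lists, on all 6 libraries (black) and on replicates 2 and 3 (orange), with lines at the medians. The epithelial markers lie above 0 in each fit (medians 0.23 and 0.43), and the other lists lie on both sides of 0 in each.

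m6A is written mainly in the context of DRACH letters, of which GGACT is the commonest form. In the reference (MANE) transcripts of the set, GGACT occurred 0.942 times per kilobase or less in 8 of 10 genes, where 0.942 is the median over the transcripts of 14684 tested genes. ALDH1A2 (1.77 per kilobase) and ALDH3A2 (1.35) were above it, CD44 was at 0.921 with 5 occurrences, and CD24 had none in 2156 bases, as had 8.62% of the transcripts. The letters do not show that a transcript is methylated, and no methylation was measured in these libraries.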

How the data were processed

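RNA was sequenced from 3 METTL3 and 3 vector libraries, grouped by their titles. The deposited values are raw counts per gene (60649 rows, 43096 with a count), which the authors made without normalization by aligning to hg38 with HISAT2 and counting with Subread; fastp and featureCounts also stand in the submitters' processing notes. Tool versions, the annotation release, the strand setting and the rule for reads shared by genes are not given in the sources used here. The labels describe a stranded TruSeq kit with paired-end reads and the methods an NEBNext kit with single-end reads. Of the counts from 1 to 20, 67.6% to 70.5% were even, so counts divided by 2 were also tested.

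Identifiers were matched to GENCODE release 44 (60463 of 60649 rows). In R 4.3.3, the 22038 genes passing filterByExpr of edgeR 4.0.16 were scaled by TMM and fitted by robust glmQLFit. P-values from glmQLFTest were adjusted by Benjamini-Hochberg, with calls at 0.05, and SE was the absolute log2 fold change divided by the root of the F statistic. CPM used TMM library sizes, and FPKM divided them by each gene's exonic length. A second fit, chosen because replicate 1 was already known to lie apart, compared replicate 1 with replicates 2 and 3, with group in the model. The code was tested on simulated data. Alternatives were DESeq2 1.42.0, other factors and filters, the replicate block, replicates 2 and 3 alone and each library left out. Depth makes counting error small except for ALDH1A2 and LGR5, and the upper limit given for the LGR5 count of 0 covers counting error only. The SD and SE values also take in the spread between libraries.

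The members and lists were chosen with earlier results of these data known. Named genes are the 10 members, METTL3, list genes with an unadjusted p under 0.05 and at least 1 CPM, the 3 most abundant per list by FPKM, and the 3 genes nearest in centred log2(CPM + 0.5) to each of the 2 most variable members. The replicate numbers are shared between groups. Correlations of same-numbered libraries' deviations were 0.36, 0.25 and 0.27, each over 0.1, and libraries with different numbers also reached 0.13 and 0.38. From these values alone, same-numbered libraries were treated as pairs in the block fit and in the differences within replicate numbers. The main test, DESeq2, replicates 2 and 3 alone and the fits without single libraries had no such pairing.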

Additional observations from a re-analysis of the deposited data

How the results depend on the processing

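On all 6 libraries, 0 members were called with METTL3 against vector under DESeq2, other factors, other filters, counts divided by 2 and a threshold of 0.01. Over all genes, DESeq2 called 280 and the fit without a filter 560, against 0 in the fit as reported. Replicates 2 and 3 alone called 3 members, and leaving out each library in turn called 0 to 1, the 1 being ALDH1A3 without vector replicate 1 (367 genes called in all). With the replicate number as a block 0 members were called, so the pairing changed no call of that fit, and no block was fitted to replicates 2 and 3 alone or in DESeq2. Signs reversed for ALDH1A1 with the replicate block (-0.025) and in replicates 2 and 3 (-0.19), and for ALDH1B1 without a filter (0.0043), with at least 10 counts in every library (0.0062), with counts divided by 2 (0.0055) and in replicates 2 and 3 (0.0079). They also reversed in replicates 2 and 3 for ALDH3A1 (-0.22, called) and PROM1 (-0.23). Leaving out each library moved the log2 fold changes between -0.27 and 0.19 for ALDH1A1, -0.068 and 0.081 for ALDH1B1, -0.086 and 0.30 for ALDH3A1, -0.022 and 0.19 for ALDH3A2, -0.23 and 0.74 for PROM1 and -0.30 and 0.67 for CD24. The sign turned without METTL3 replicate 1 for ALDH1A1, ALDH1B1, ALDH3A2, PROM1 and CD24 (-0.27, 0.081, -0.019, -0.23 and -0.30), without vector replicate 1 for ALDH3A1 (-0.086), without vector replicate 2 for ALDH1B1 and ALDH3A2 (0.036 and -0.0063), and without vector replicate 3 for ALDH1A1, ALDH1B1 and ALDH3A2 (-0.039, 0.037 and -0.022). For CD44 the range was -0.63 to -0.15, for ALDH1A3 0.14 to 0.46 and for ALDH1A2 0.22 to 0.78. For replicate 1 against 2 and 3, DESeq2 called 5 members (16.2% of all genes), upper quartile factors 4 (9.5%) and no filter 4 (9.79%), against 2 (9.06%), and leaving out each library gave 2 to 7, with ALDH3A1 between -0.82 and 0.37. CD24 and CD44 stayed called in all 10 of these alternatives, with adjusted p up to 0.0326 and 0.0493. The cause of these changes was not tested.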
